A study of Homo sapiens with 6 samples.

Results

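The 45 genes described here encode the enzymes of glycolysis, their regulators and transporters, and genes known as targets of the hypoxia-inducible factors (HIF). They were chosen by name, from a list of symbols drawn up with earlier results of these data known, and all 45 were found among the 18398 genes of the deposited count table. They comprised 17 genes of glycolytic steps, 17 non-glycolytic hypoxia genes and 11 others: 2 fructose-2,6-bisphosphate enzymes, 2 lactate transporters, 2 pyruvate dehydrogenase kinases, 3 glycogen enzymes and 2 HIF alpha subunits. All 45 passed the filter on low counts.

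The cells were SUM159, an established cell line from a human breast carcinoma of the triple-negative, mesenchymal kind, grown in Ham's F12 medium with serum, insulin and hydrocortisone. Control cells carried the empty lentiviral vector pLVX, and POGK cells stably overexpressed POGK, a KRAB-domain protein derived from a pogo transposable element, so all 6 libraries share the line, the medium and the vector backbone. Each group had 3 libraries of ribosomal RNA-depleted total RNA, and the comparison was made to find genes regulated by POGK. The labels do not say whether the replicates of a group are separate cultures or whether the stable cells are 1 clone, so the p-values cover the spread of these libraries alone, which may be technical.

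Library totals lay between 27645789 and 33689230 counts. POGK itself rose 11.1-fold, from 69.0 ± 7.58 to 768 ± 22.0 CPM (counts scaled to library size; mean ± SD, n = 3 each), and reads of the introduced copy cannot be separated from those of the cells' own gene. The 5 mesenchymal markers of the line summed to 9305 to 11693 CPM in control and 5463 to 5520 CPM in POGK libraries. VIM, FN1, CD44 and ZEB1 were lower in every POGK library, whereas AXL went from 347 to 359 CPM in control to 437 to 448 CPM. Of the luminal and receptor genes, ESR1 stayed at or below 0.32 CPM and EPCAM at or below 0.34 CPM. ERBB2 lay between 66.4 and 77.2 CPM in control and between 81.8 and 87.5 CPM in POGK libraries. GATA3 lay between 7.89 and 9.86 CPM in control and between 3.84 and 4.70 CPM in POGK libraries. PGR and CDH1 were not among the deposited genes. The summed leukocyte and endothelial markers stayed at or below 2.46 and 7.48 CPM. The fibroblast markers, of which COL1A1, DCN and PDGFRA are also genes of mesenchymal tumour cells, summed to 1140 to 1371 CPM in control and 1149 to 1177 CPM in POGK libraries. This sum hides opposite moves. COL1A1 went from 696 to 844 CPM in control to 875 to 904 CPM in POGK libraries. COL3A1 was also higher, at a low level of 1.29 to 2.20 CPM in control and 5.87 to 6.80 CPM in POGK libraries. DCN went from 339 to 476 CPM in control to 161 to 166 CPM in POGK libraries, and PDGFRA overlapped. LUM was also lower but near the floor, at 0.44 to 0.85 CPM in control and 0.20 to 0.36 CPM in POGK libraries. Mitochondrial mRNAs took 1.03% to 2.36% of counts in control and 3.60% to 3.88% in POGK libraries, and their part in the results below was not tested. In bulk RNA, fewer cells of a kind and less RNA per cell cannot be told apart.

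Glycolysis turns glucose into pyruvate through a chain of cytosolic enzymes and yields ATP without oxygen, and lactate dehydrogenase and lactate exporters dispose of the product. HIF is a pair of an alpha subunit, HIF-1α or HIF-2α, with ARNT. Prolyl hydroxylases of the EGLN family mark the alpha subunit for destruction through VHL while oxygen is present, so HIF activity is set mainly at the level of protein stability. When stabilised, HIF binds the core sequence ACGTG or GCGTG near its targets, among them most glycolytic enzymes as well as genes of pH control, mitophagy, collagen modification and angiogenesis. Many cancer cells keep glycolysis high in the presence of oxygen.

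Of the 45 genes, 33 fell in POGK cells, 4 rose and 8 did not pass the test (edgeR's quasi-likelihood test, Benjamini-Hochberg adjusted p below 0.05). Across all 15889 genes tested, 33.3% were lower and 32.7% were higher, and 66% were called in either direction, so change itself was common in this comparison. The median log2 fold change was -0.55 over the 45 genes and 0.0025 over all genes tested. Falls of at least 2-fold were found for 21 of the 45, against 12.7% of all genes. None of the 45 rose at least 2-fold, against 9.58% of all genes. Control and POGK libraries were fully separated in CPM for 41 of the 45, against 73.7% of all genes.

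The 17 non-glycolytic hypoxia genes are set beside the 17 glycolytic steps. All 17 hypoxia genes fell, 13 of them at least 2-fold, with a median log2 fold change of -1.34 and quartiles at -2.35 and -1.09. Of the 17 glycolytic steps, 9 fell, 2 rose and 6 did not pass, 5 of the falls were at least 2-fold, and the median was -0.36 with quartiles at -1.20 and 0.08. The 11 glycolytic steps called in either direction are a share close to the 66% of all genes. No test of the difference between the lists was made, and the values are given side by side. With library size alone as scaling, which moved the median of all genes to 0.19, 14 hypoxia genes and 8 glycolytic steps were lower and the medians were -1.14 and -0.16.

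**Figure D1:**
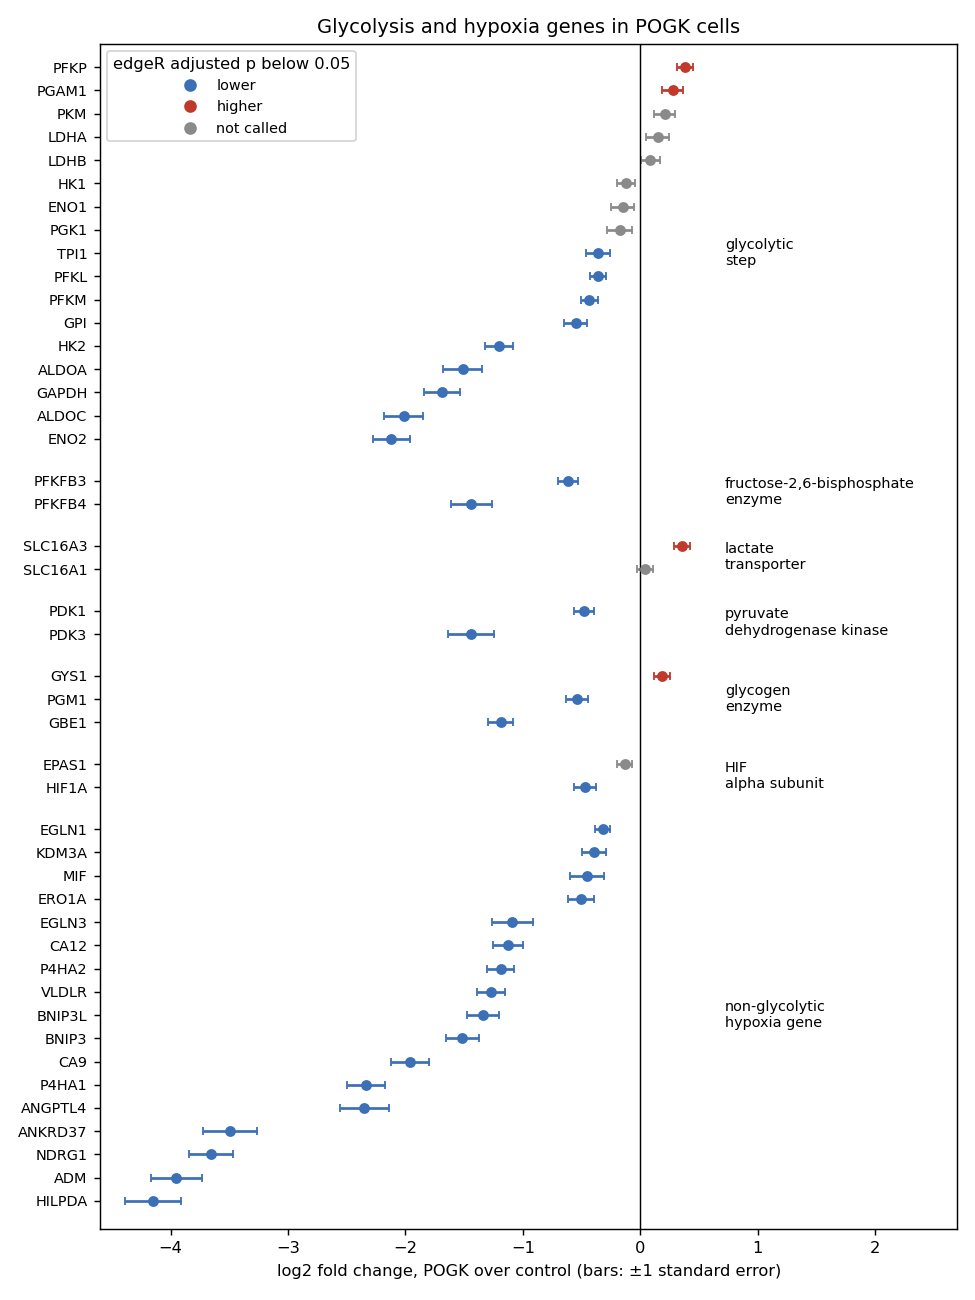
Log2 fold change of POGK over control cells for all 45 genes (horizontal axis, bars ±1 standard error), grouped by role; blue and red mark genes lower and higher at an edgeR adjusted p below 0.05. The 17 hypoxia genes at the bottom lie between -4.15 for HILPDA and -0.32 for EGLN1, whereas the glycolytic steps at the top run from -2.12 for ENO2 to 0.38 for PFKP.

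The largest falls were in 4 hypoxia genes with distinct roles. HILPDA, which coats lipid droplets and restrains lipolysis (ENSG00000135245; hg38 chromosome 7, 128455849 to 128458418), stood at 592, 340 and 328 CPM in control replicates 1, 2 and 3 and at 24.1, 23.6 and 23.2 CPM in the POGK libraries. It fell 17.8-fold, with a log2 fold change of -4.15 and a standard error of 0.24 (edgeR adjusted p = 6.15e-06). ADM, the gene of the vasodilator peptide adrenomedullin, had 427, 250 and 255 CPM in control and 20.5, 18.7 and 21.1 CPM in POGK libraries, a fall of 15.5-fold (adjusted p = 4.86e-06). In both genes control replicate 1 was far above the other control libraries, the POGK libraries lay close together, and the groups were far apart.

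NDRG1, a stress-induced cytoplasmic protein linked to differentiation (hg38 chromosome 8, 133237175 to 133302022), had 2586, 1519 and 1830 CPM in control and 151, 158 and 163 CPM in POGK libraries. It fell 12.6-fold at an edgeR adjusted p of 3.26e-06, the smallest among the 45. ANKRD37, an ankyrin-repeat protein known as a direct HIF-1 target, stood at 32.2, 18.2 and 24.8 CPM in control and at 1.90, 2.16 and 2.63 CPM in POGK libraries, a fall of 11.3-fold. Exons of UFSP2, on the opposite strand, cover 40.3% of its exon length. The order of the control libraries was the same for NDRG1 and ANKRD37, with replicate 1 highest and replicate 2 lowest, and no POGK library came near any of them.

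Genes of collagen modification and of lipid uptake also fell. P4HA1, the catalytic subunit of the collagen prolyl hydroxylase, had 773, 471 and 577 CPM in control and 117, 120 and 124 CPM in POGK libraries, a fall of 5.05-fold (edgeR adjusted p = 9.19e-06). Its paralog P4HA2 fell 2.28-fold, from 242 ± 42.0 to 106 ± 3.50 CPM. ANGPTL4, a secreted inhibitor of lipoprotein lipase, fell 5.10-fold from 82.4 ± 26.6 to 16.2 ± 1.52 CPM. VLDLR, a receptor for lipoproteins, fell 2.42-fold from 30.3 ± 4.69 to 12.5 ± 0.06 CPM.

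The membrane carbonic anhydrases, which buffer the acid that glycolytic cells export, fell unequally. CA9 had 264, 165 and 189 CPM in control and 47.9, 55.5 and 55.0 CPM in POGK libraries, a fall of 3.90-fold, and CA12 fell 2.19-fold, from 751 ± 149 to 344 ± 1.69 CPM. Exons of CA9 overlap those of ARHGEF39, on the opposite strand, over 35.7% of their length, and no source used here gives the strand setting of the counting. The mitophagy receptors BNIP3 and BNIP3L fell 2.86-fold and 2.53-fold, from 312 ± 69.5 and 200 ± 41.3 CPM. BNIP3 has 44 annotated pseudogenes by name, so reads may be split among them.

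The remaining hypoxia genes fell less. EGLN3, a prolyl hydroxylase induced by HIF, fell 2.13-fold from 230 ± 63.3 to 108 ± 11.0 CPM, and EGLN1, the main oxygen sensor among them, fell 1.25-fold from 112 ± 5.41 to 89.5 ± 2.29 CPM. ERO1A, which oxidises disulfide isomerase in the endoplasmic reticulum, fell 1.42-fold from 207 ± 34.4 to 146 ± 4.76 CPM. KDM3A, a histone H3K9 demethylase, fell 1.31-fold from 82.5 ± 12.1 to 62.7 ± 0.96 CPM. MIF, the gene of a cytokine, fell 1.37-fold from 23.4 ± 5.01 to 17.1 ± 0.55 CPM (edgeR adjusted p = 0.0205), and leaving out a POGK replicate ended this call each time, with adjusted p between 0.0515 and 0.0708. With library size alone, EGLN1, KDM3A and MIF did not pass, at adjusted p-values of 0.109, 0.123 and 0.115. Exons of MIF and EGLN1 overlap those of other genes over 94.1% and 55.8% of their length.

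**Figure D2:**
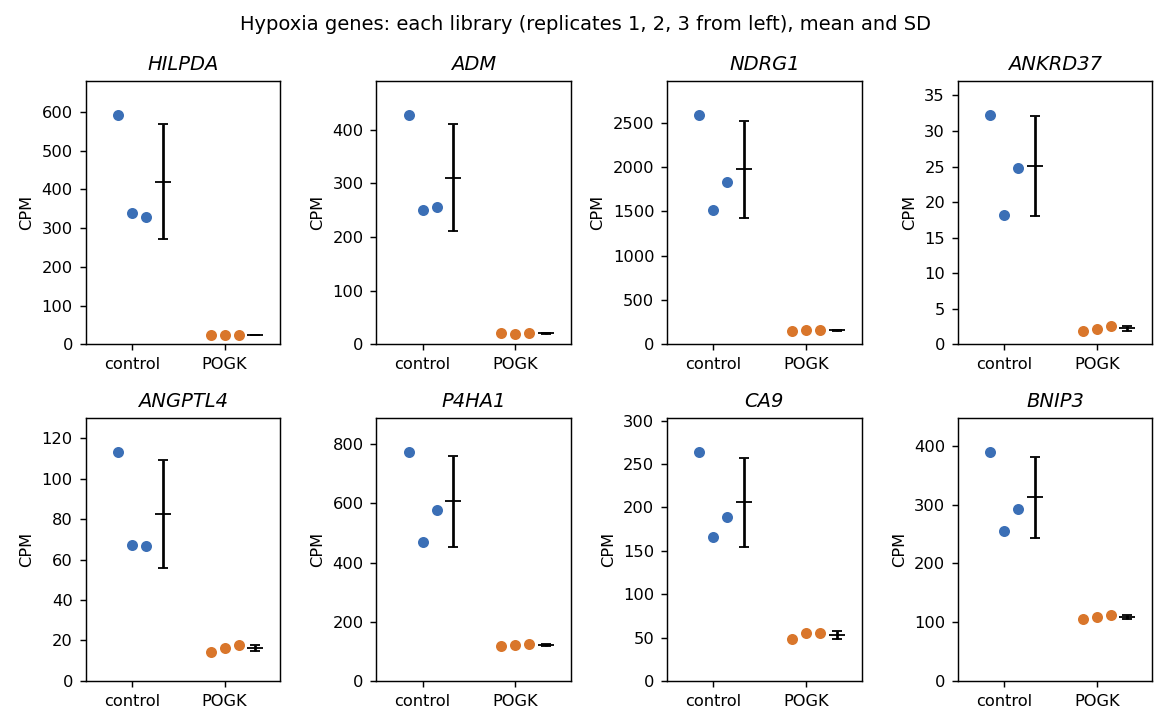
CPM (vertical axes, starting at 0) of 8 hypoxia genes in each control (blue) and POGK (orange) library, with the mean and SD in black. Control replicate 1, the leftmost point, is the highest control library in every panel, and for HILPDA the control libraries lie between 328 and 592 CPM and the POGK libraries between 23.2 and 24.1 CPM.

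The promoters of 3 of these genes are shown because HIF is known to act on such genes through the core sequence. Each window runs from 250 bases before to 50 bases after the annotated start, 5′ to 3′ on the gene's strand, from RefSeq on GRCh38.p14, with each ACGTG or GCGTG on either strand in capitals. The windows are chr11:10304823-10305122 on the plus strand for ADM, chr4:185396591-185396890 on the plus strand for ANKRD37 and chr9:35673678-35673977 on the plus strand for CA9.
ADM: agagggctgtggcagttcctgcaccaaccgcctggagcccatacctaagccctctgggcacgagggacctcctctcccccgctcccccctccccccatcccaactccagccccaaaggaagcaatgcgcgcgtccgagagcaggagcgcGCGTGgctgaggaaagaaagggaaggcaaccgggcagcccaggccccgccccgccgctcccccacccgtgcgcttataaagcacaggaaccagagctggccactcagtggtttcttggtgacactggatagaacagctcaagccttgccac
ANKRD37: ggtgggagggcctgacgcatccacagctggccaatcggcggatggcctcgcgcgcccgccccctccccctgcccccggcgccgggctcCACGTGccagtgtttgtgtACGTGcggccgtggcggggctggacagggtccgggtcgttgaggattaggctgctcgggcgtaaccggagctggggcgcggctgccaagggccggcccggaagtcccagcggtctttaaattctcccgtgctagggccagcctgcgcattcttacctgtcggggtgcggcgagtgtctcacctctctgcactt
CA9: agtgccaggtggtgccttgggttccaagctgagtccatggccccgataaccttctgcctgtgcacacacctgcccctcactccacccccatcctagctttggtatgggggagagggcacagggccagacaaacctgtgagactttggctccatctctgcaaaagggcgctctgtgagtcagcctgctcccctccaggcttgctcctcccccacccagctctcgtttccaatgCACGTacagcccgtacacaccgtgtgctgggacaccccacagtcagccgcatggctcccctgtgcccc

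ADM held 1 match, ANKRD37 held 2 and CA9 held 1 within the bases just before its start. The table held a promoter for 41 of the 45 genes. A match to ACGTG or GCGTG was found in 12 of 14 hypoxia genes and in 12 of 17 glycolytic steps, and in 48.4% of all 35116 promoters of the same length. ACGTG alone was found in 8 of 14, in 8 of 17 and in 21.4% of all promoters. The 35116 promoters were not limited to genes tested here, nor matched to the listed genes in expression or base composition. They are therefore no matched background, and no enrichment was tested. Matches of the motifs that overlap were counted as 1, and a match is a description of the letters, not a bound site.

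Among the HIF alpha subunits, HIF1A fell, EPAS1 did not pass and HIF3A, which was listed with the regulators of HIF, rose. HIF1A, the gene of HIF-1α, had 1892, 1558 and 1697 CPM in control and 1285, 1212 and 1210 CPM in POGK libraries, a fall of 1.39-fold (log2 fold change -0.47, standard error 0.09, edgeR adjusted p = 0.00197). EPAS1, the gene of HIF-2α, had 154, 163 and 149 CPM in control and 142, 143 and 140 CPM in POGK libraries, a log2 fold change of -0.13 (adjusted p = 0.0962). Control and POGK libraries were separated for HIF1A and EPAS1. HIF3A rose 4.12-fold, from 2.24 ± 0.56 CPM in control to 9.17 ± 0.52 CPM in POGK cells (edgeR adjusted p = 2.46e-05). Its groups were separated too, and it was called in 13 of 13 alternatives. These are RNA levels, and the HIF proteins were not measured here.

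The glycolytic steps are described in the order of the pathway. HK2, the hexokinase that HIF is known to induce, had 273, 192 and 216 CPM in control and 95.2, 99.0 and 101 CPM in POGK libraries, a fall of 2.30-fold (edgeR adjusted p = 4.53e-05). HK1, the hexokinase of most tissues, had 550, 497 and 492 CPM in control and 482, 469 and 461 CPM in POGK libraries and did not pass, at a log2 fold change of -0.12 and an adjusted p of 0.176. All POGK libraries lay below all control libraries for both genes, by a wide gap for HK2 and a narrow one for HK1. GPI, which makes fructose 6-phosphate, fell 1.46-fold from 608 ± 79.4 to 416 ± 7.81 CPM.

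The 3 phosphofructokinase genes, whose products form the committed step as mixed tetramers, moved in opposite directions. PFKP, the platelet type, had 353, 320 and 326 CPM in control and 438, 430 and 431 CPM in POGK libraries, a rise of 1.30-fold (edgeR adjusted p = 0.00138). PFKM, the muscle type, had 228, 200 and 226 CPM in control and 164, 157 and 163 CPM in POGK libraries, a fall of 1.35-fold. PFKL, the liver type, had 146, 132 and 134 CPM in control and 107, 108 and 106 CPM in POGK libraries, a fall of 1.28-fold. In none of the 3 genes did the groups overlap.

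PFKFB3 and PFKFB4 make and degrade fructose 2,6-bisphosphate, the strongest activator of phosphofructokinase, and both fell. PFKFB4 had 35.7, 21.9 and 29.2 CPM in control and 9.48, 11.0 and 11.5 CPM in POGK libraries, a fall of 2.71-fold (edgeR adjusted p = 0.000123). PFKFB3 had 70.5, 59.5 and 62.9 CPM in control and 44.1, 39.4 and 41.9 CPM in POGK libraries, a fall of 1.54-fold.

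Both aldolases, which split the sugar into triose phosphates, fell. ALDOC, the brain-type aldolase, had 272, 164 and 201 CPM in control and 51.7, 52.3 and 53.4 CPM in POGK libraries, a fall of 4.04-fold (edgeR adjusted p = 1.95e-05). ALDOA, the muscle-type aldolase, fell 2.86-fold from 46.4 ± 12.4 to 16.2 ± 0.39 CPM. Its level is uncertain, because 54.2% of its exon length overlaps other annotated genes. TPI1, which interconverts the triose phosphates, fell 1.28-fold from 838 ± 117 to 654 ± 4.11 CPM at an adjusted p of 0.0132. The TPI1 call was lost with library size alone, at 0.0832, and when a POGK replicate was left out, at 0.0508 to 0.0540.

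GAPDH, which makes NADH and the first high-energy intermediate, is often used as a reference gene. It stood at 15557, 10803 and 11041 CPM in control and at 3882, 3832 and 3905 CPM in POGK libraries, and fell 3.22-fold (log2 fold change -1.69, standard error 0.15, edgeR adjusted p = 2.75e-05). All glycolytic steps together summed to 31190, 24050 and 24206 CPM in control and to 17068, 17048 and 17206 CPM in POGK libraries. They took 2.46 ± 0.25% of all counts in control and 1.83 ± 0.02% in POGK cells (SD, n = 3 each), and GAPDH alone held 12467 ± 2678 of the control CPM and 3873 ± 37.4 of the POGK CPM. Most of the drop in the summed CPM of the glycolytic steps thus lay in GAPDH. GAPDH has 65 pseudogenes by name, so its reads may be split among copies.

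Downstream of GAPDH, 5 of 7 genes did not pass, beside 34.0% of all genes, and 3 of these 5 were called higher without control replicate 1. PGK1, the first ATP-yielding step, had 1866, 1441 and 1525 CPM in control and 1395, 1433 and 1452 CPM in POGK libraries, with a log2 fold change of -0.17 and an edgeR adjusted p of 0.179. ENO1, the common enolase, had 3742, 3200 and 3215 CPM in control and 3041, 3043 and 3061 CPM in POGK libraries (log2 fold change -0.15, adjusted p = 0.189). The groups overlapped for PGK1, and for ENO1 the POGK libraries lay just below the lowest control library. ENO2, the neuronal enolase, had 321, 201 and 301 CPM in control and 61.4, 61.5 and 66.7 CPM in POGK libraries, and fell 4.34-fold at an adjusted p of 1.43e-05.

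PGAM1, which moves the phosphate of phosphoglycerate, had 104, 84.4 and 83.4 CPM in control and 106, 110 and 112 CPM in POGK libraries, a rise of 1.21-fold at an edgeR adjusted p of 0.0252. This call was lost when control replicate 2 or 3 or a POGK replicate was left out, with adjusted p between 0.0514 and 0.0969, and PGAM1 did not pass in the authors' deposited table, at an adjusted p of 0.084. PKM, pyruvate kinase, had 2458, 2297 and 2116 CPM in control and 2659, 2627 and 2647 CPM in POGK libraries and did not pass, at a log2 fold change of 0.21 and an adjusted p of 0.0666. Every POGK library was above every control library for PKM.

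The lactate dehydrogenases did not pass. LDHA, which makes lactate from pyruvate, had 2614, 2198 and 2124 CPM in control and 2533, 2571 and 2576 CPM in POGK libraries, with a log2 fold change of 0.15 (edgeR adjusted p = 0.224). LDHB, which favours the reverse reaction, had 974, 930 and 850 CPM in control and 978, 968 and 974 CPM in POGK libraries, with a log2 fold change of 0.08 (adjusted p = 0.379). The groups overlapped for both, with control replicate 1 above the POGK libraries for LDHA and among them for LDHB. Another protein-coding gene on the same strand covers 33.4% of the exon length of LDHB. Without control replicate 1, LDHA, LDHB and PKM were called higher, with log2 fold changes of 0.25, 0.13 and 0.26, and with library size alone they were called higher at 0.35, 0.28 and 0.40.

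**Figure D3:**
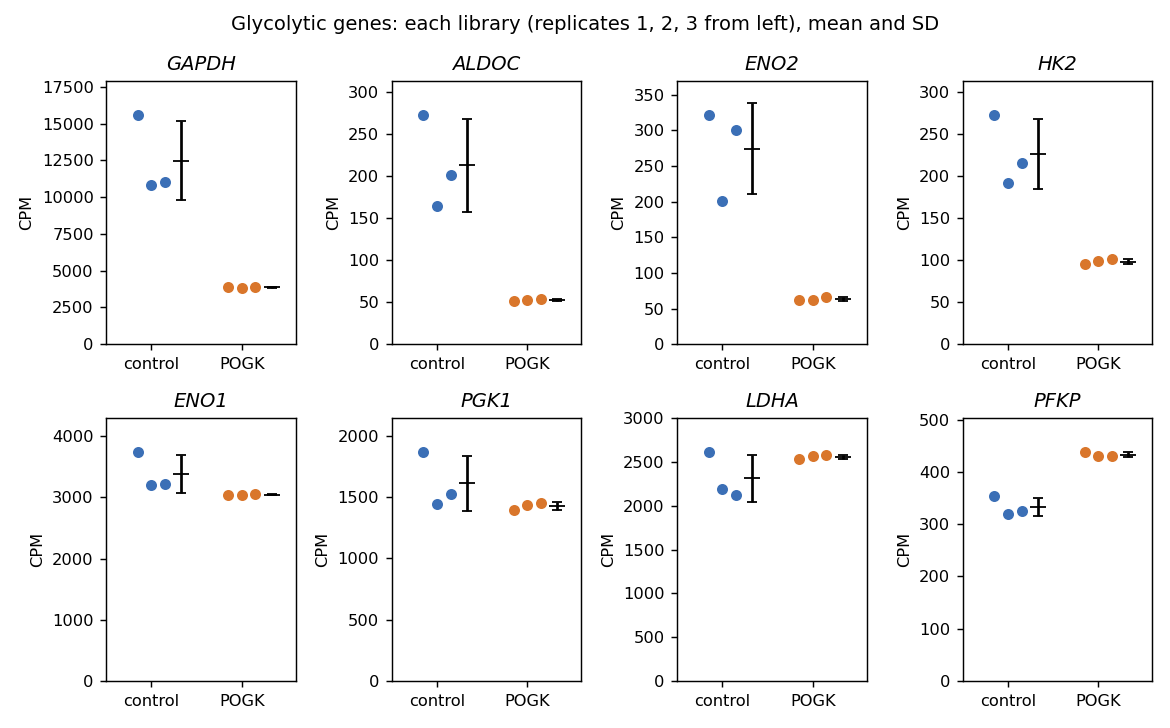
CPM (vertical axes, starting at 0) of 8 glycolytic genes in each control (blue) and POGK (orange) library, with the mean and SD in black. GAPDH, ALDOC, ENO2 and HK2 in the upper row are far lower in POGK libraries, whereas the POGK libraries of ENO1, PGK1 and LDHA lie near the control libraries and those of PFKP lie above them.

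Promoters of 3 glycolytic genes are shown because they hold equal numbers of core sequences while their RNA levels moved differently. The windows, built and marked as above, are chr17:28576846-28577145 on the minus strand for ALDOC, chr11:18394313-18394612 on the plus strand for LDHA and chrX:78103998-78104297 on the plus strand for PGK1.
ALDOC: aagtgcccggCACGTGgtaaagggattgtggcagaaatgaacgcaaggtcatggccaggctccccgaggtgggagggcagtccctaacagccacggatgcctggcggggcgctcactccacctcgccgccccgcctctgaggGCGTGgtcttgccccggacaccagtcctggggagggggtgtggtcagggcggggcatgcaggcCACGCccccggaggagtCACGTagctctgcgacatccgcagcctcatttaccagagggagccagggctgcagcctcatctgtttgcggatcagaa
LDHA: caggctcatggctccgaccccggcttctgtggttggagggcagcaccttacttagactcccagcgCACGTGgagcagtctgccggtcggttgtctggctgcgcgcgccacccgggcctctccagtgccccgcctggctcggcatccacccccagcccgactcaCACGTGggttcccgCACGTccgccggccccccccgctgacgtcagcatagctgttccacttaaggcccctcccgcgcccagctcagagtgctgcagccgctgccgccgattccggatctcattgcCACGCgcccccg
PGK1: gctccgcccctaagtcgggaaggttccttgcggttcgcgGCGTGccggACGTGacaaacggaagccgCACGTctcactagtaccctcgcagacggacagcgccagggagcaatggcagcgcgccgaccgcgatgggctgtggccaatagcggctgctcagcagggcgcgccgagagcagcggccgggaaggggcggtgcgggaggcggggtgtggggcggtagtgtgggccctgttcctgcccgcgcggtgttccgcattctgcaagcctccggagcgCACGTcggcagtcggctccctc

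ALDOC, LDHA and PGK1 held 4 matches each. They were picked for equal matches and unequal change, so they say nothing of how matches and change relate.

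Per kilobase of exon, the levels of the glycolytic steps spanned a wide range in both groups. The length used is the merged length of all annotated exons of a gene. Ranks between genes, and the shares of paralogs given below, therefore depend in part on the annotation. GAPDH was highest, at 5203 CPM per kb in control and 1616 CPM per kb in POGK cells, followed by ENO1 at 649 and 584 and LDHA at 384 and 425 CPM per kb in the same order. TPI1, LDHB, PGK1 and PKM formed the next group in control cells, between 267 and 310 CPM per kb, and the ranges of their control libraries overlapped. In POGK cells the same 4 genes lay between 242 and 326 CPM per kb. ALDOC fell from rank 8 to rank 13 and ENO2 from rank 10 to rank 15, and PFKP went from rank 12 to rank 9.

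**Figure D4:**
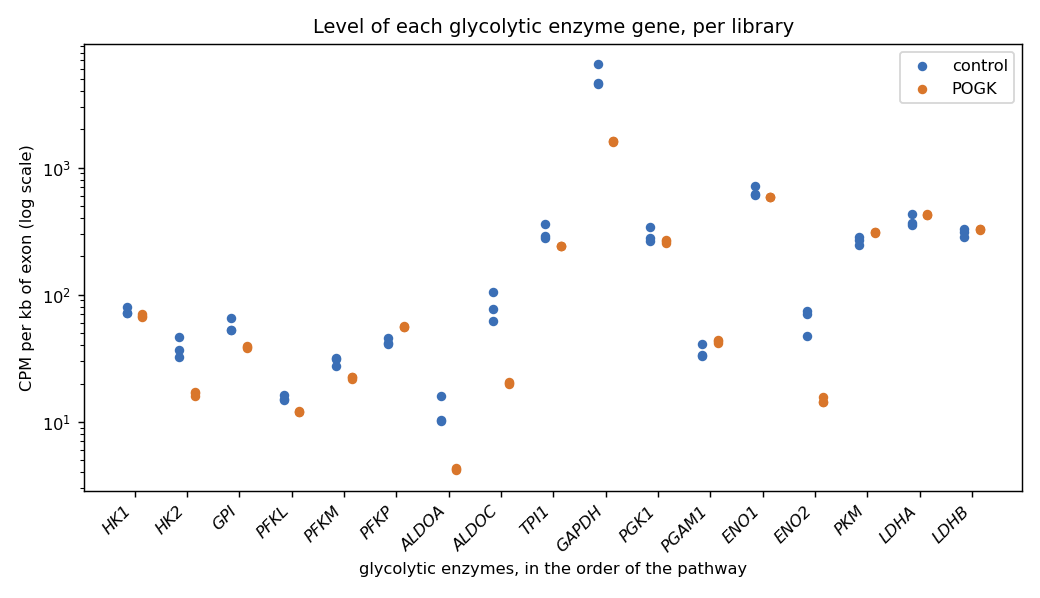
CPM per kb of exon (log axis) for each glycolytic enzyme gene in the order of the pathway, with 1 point per control (blue) or POGK (orange) library. GAPDH lies above all others in both groups, and the gap between the groups is widest for ENO2, ALDOC and GAPDH.

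Lactate export and pyruvate entry were mixed. SLC16A3, the lactate exporter MCT4 and a known hypoxia gene, had 78.0, 70.3 and 70.2 CPM in control and 93.9, 91.2 and 93.8 CPM in POGK libraries, a rise of 1.28-fold (edgeR adjusted p = 0.00171). SLC16A1, the carrier MCT1, had 194, 203 and 183 CPM in control and 194, 200 and 201 CPM in POGK libraries, a log2 fold change of 0.04 (adjusted p = 0.627), and the groups overlapped. PDK1 and PDK3, kinases that switch off pyruvate dehydrogenase, both fell. PDK1 had 66.6, 57.9 and 67.8 CPM in control and 42.8, 47.2 and 47.6 CPM in POGK libraries, a fall of 1.40-fold. PDK3 had 8.29, 5.17 and 6.16 CPM in control and 2.43, 2.18 and 2.60 CPM in POGK libraries, a fall of 2.71-fold.

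The glycogen enzymes split. GBE1, which makes the branches of glycogen, had 620, 467 and 513 CPM in control and 237, 231 and 234 CPM in POGK libraries, a fall of 2.28-fold (edgeR adjusted p = 2.60e-05). PGM1, which links glycogen to glycolysis, had 188, 147 and 165 CPM in control and 118, 114 and 113 CPM in POGK libraries, a fall of 1.45-fold. GYS1, glycogen synthase, had 92.5, 84.5 and 89.4 CPM in control and 97.7, 104 and 101 CPM in POGK libraries, a rise of 1.14-fold at an adjusted p of 0.0335. The GYS1 rise was lost with DESeq2, at 0.0721, with the replicate number as a block, at 0.0665, without control replicate 3, at 0.0583, and when a POGK replicate was left out, at 0.0660 to 0.137.

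The listed paralogs formed 13 families, and 9 of them had no member with 30% or more of its exon length shared with another gene. In all 9 the share of each member in the family's CPM per kb was separated between the groups, as the CPM of 73.7% of all single genes were. No such share was computed for families outside the 45 genes. Among the families left out for exon overlap, LDHA held 55.4 ± 1.57% of the lactate dehydrogenases in control and 56.6 ± 0.33% in POGK cells, and the groups overlapped. The shares of the aldolases, EGLN genes and carbonic anhydrases were separated. The share of HK2 went from 33.8 ± 2.81% to 19.5 ± 0.82% of the hexokinases, that of ENO2 from 8.94 ± 1.63% to 2.46 ± 0.11% of the enolases, and that of P4HA1 from 89.0 ± 0.75% to 78.8 ± 0.94% of its pair (SD, n = 3 each). PFKP held 48.5 ± 0.86% of the phosphofructokinases in control and 61.9 ± 0.23% in POGK cells. HIF1A held 93.9 ± 0.75% of its pair with EPAS1 in control and 92.5 ± 0.22% in POGK cells, with HIF3A left out. These shares follow from the levels above and were not tested. The pair of PDK1 and PDK3 leaves out PDK4, at 15.2 CPM per kb in control and 1.29 in POGK cells, and PDK2, at 2.58 and 3.07. PDK1 stood at 4.32 and 3.09 CPM per kb, so the share of PDK3 holds for that pair alone.

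**Figure D5:**
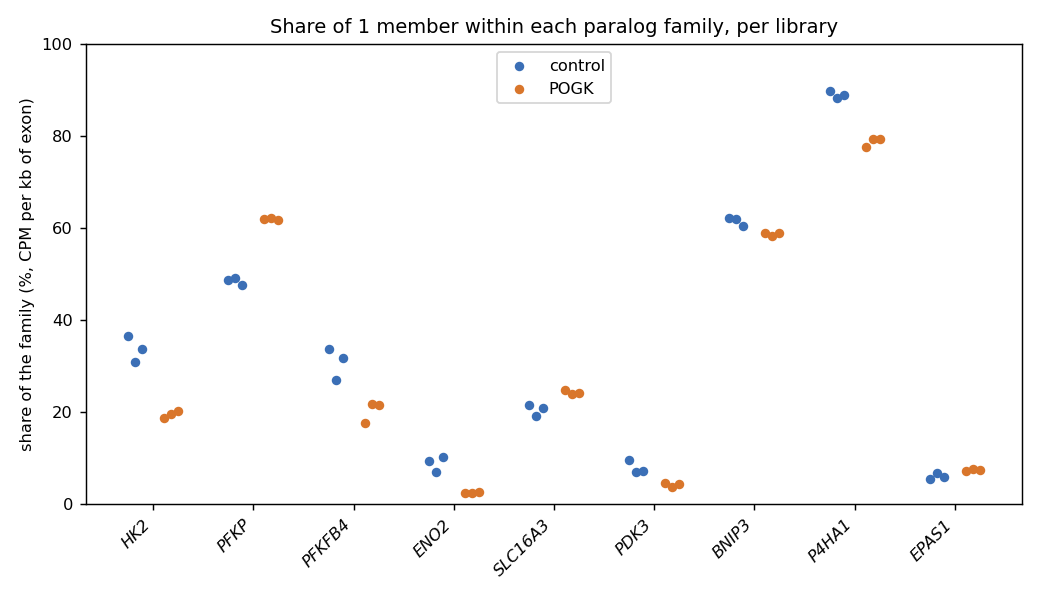
Share (%) of 1 named gene in the CPM per kb of its paralog family, with 1 point per control (blue) or POGK (orange) library, for the 9 families without large exon overlaps. HK2, PFKFB4, ENO2, PDK3, BNIP3 and P4HA1 have lower shares in POGK libraries, and PFKP, SLC16A3 and EPAS1 have higher ones.

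The spread within the control group ran in 1 direction for most of the 45 genes. Control replicate 1 was the highest control library for 41 of 45, for 17 of 17 glycolytic steps and for 16 of 17 hypoxia genes, against 34.7% of all genes tested. Control replicate 2 was the lowest for 30 of the 45, against 35.2% of all genes. The median coefficient of variation was 22.3% in control and 3.29% in POGK libraries for the hypoxia genes, and 13.5% and 4.44% for all genes. Without control replicate 1, 17 hypoxia genes and 9 glycolytic steps were lower, 7 of the 45 were higher in place of 4, and the median log2 fold changes were -1.17 for the hypoxia genes and -0.23 for the glycolytic steps.

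Of 19 regulators of HIF outside the 45, each tested as a single gene, 11 fell and 6 rose, against 33.3% lower and 32.7% higher among all genes. Among those that fell, EP300, which encodes the coactivator p300, lost its call in 8 of 13 alternatives. ARNT, the partner of the alpha subunits, fell 1.80-fold from 107 ± 9.72 to 59.6 ± 2.29 CPM, and VHL had 69.2 ± 4.80 CPM in control and 67.9 ± 1.58 CPM in POGK cells (edgeR adjusted p = 0.751). CITED2, a competitor of HIF for the coactivator p300, fell 5.34-fold from 383 ± 90.3 to 71.7 ± 0.32 CPM. HSP90AA1, a chaperone that stabilises HIF-1α among many clients, rose 3.82-fold from 1015 ± 189 to 3873 ± 30.5 CPM. Members of the VHL ubiquitin ligase rose, CUL2 1.76-fold, RBX1 1.30-fold and ELOC 1.28-fold, and HIF1AN, the asparagine hydroxylase that blocks HIF activity, rose 1.44-fold. ELOB, another part of that ligase, fell 1.32-fold; it is named after its values were seen.

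Of 37 further hypoxia genes tested, 31 fell and 2 rose, with a median log2 fold change of -1.13, where 33.3% of all genes were lower and 32.7% higher. LOX, a collagen crosslinking enzyme, fell 17.0-fold from 483 ± 160 to 28.4 ± 0.78 CPM, and STC2, a secreted glycoprotein, fell 3.63-fold from 499 ± 73.5 to 138 ± 3.18 CPM. WSB1, part of a ubiquitin ligase, rose 1.25-fold from 59.7 ± 10.8 CPM at an edgeR adjusted p of 0.0341, and the WSB1 call was lost without control replicate 1 or 2 or a POGK replicate, at 0.0639 to 0.0839.

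Of 13 genes of pyruvate entry into mitochondria, 6 rose and 4 fell, which is 76.9% called beside 66% of all genes. PDHA1, the catalytic subunit of pyruvate dehydrogenase, rose 1.80-fold from 130 ± 11.1 to 234 ± 1.60 CPM. PDK4, a further kinase of that complex, had 89.5, 53.6 and 64.2 CPM in control and 5.73, 5.94 and 5.90 CPM in POGK libraries, a fall of 11.8-fold (edgeR adjusted p = 3.32e-06). PC, which carboxylates pyruvate, PDPR, a regulator of the phosphatase, and MPC2, part of the mitochondrial pyruvate carrier, fell 2.22-fold, 1.50-fold and 1.42-fold. MPC1, the other part of the carrier, rose 1.46-fold; it too is named after its values were seen.

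Of 14 further genes of gluconeogenesis and glycogen tested, 5 rose and 4 fell, a called share of 64.3% that is close to the 66% of all genes. PPP1R3B and PPP1R3C, which bring a phosphatase to glycogen, fell 5.96-fold and 3.95-fold, from 91.2 ± 20.1 and 49.8 ± 8.58 CPM. Of 8 other glycolysis genes tested, 3 rose and 1 fell, which is 50% called. TIGAR, which lowers fructose 2,6-bisphosphate, had 1.13, 5.14 and 1.95 CPM in control and 14.5, 15.1 and 15.9 CPM in POGK libraries, a rise of 5.40-fold. The control libraries of TIGAR were uneven, with replicate 2 highest, and all lay below the POGK libraries. Without control replicate 2 the rise of TIGAR was 9.64-fold. LDHD, the mitochondrial D-lactate dehydrogenase, fell from 1.41 ± 0.40 to 0.25 ± 0.12 CPM.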

How the data were processed

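RNA was sequenced from 3 control and 3 POGK libraries of SUM159 cells. Per the labels' protocols reads were aligned to hg38, and featureCounts, STAR, Trimmomatic, SAMtools and deepTools are named, with no versions, per the submitters' processing notes. The annotation and strand setting were not given in the sources used here. Raw counts per Ensembl gene were deposited for 18398 genes, each with at least 21 reads over the 6 libraries, and these counts entered all tests. Per the file headers the authors also deposited a log2 fold change and an adjusted p-value per gene, used only where their table is named; the tool is not stated. That table gave the same call for 43 of the 45 genes.

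The main test was edgeR 4.0.16 (R 4.3.3), quasi-likelihood with robust estimation, TMM scaling, the default filter on low counts (15889 genes kept) and Benjamini-Hochberg adjustment over all of these. CPM used TMM-scaled library sizes. Standard errors were derived from the F statistic. The code was tested on simulated counts with a small set of changed genes and the same spread in both groups. That check does not cover the wide change and the unequal spread of these data. Exon lengths, positions and overlaps came from GENCODE release 44 on hg38, and promoters from RefSeq on GRCh38.p14.

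Alternatives were DESeq2 1.42.0, limma-voom (limma 3.58.1), other scalings and filters, the replicate number as a block, other list definitions and each library left out. Deviations of same-numbered libraries of the 2 groups had correlations from 0.0057 to 0.071, and those of the other pairs from -0.072 to 0.034. Each control library correlated best with its same-numbered POGK library. Because all correlations were small, the numbers were not taken to pair the libraries. Pairs of control libraries differed more (chi-square per gene 22.5 to 49.7) than pairs of POGK libraries (1.36 to 2.62), and the test fitted 1 spread to both groups.

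The 45 genes, the lists and the tests were chosen with earlier results of these data known. Values in every library are given, within each role, for the 3 genes with the smallest adjusted p, genes called higher or not called, both HIF alpha subunits, and families called in opposite directions; others are given by group means, except ANKRD37, P4HA1, CA9 and HK2, whose library values were added after they were seen. From the further lists, the text names the 2 called genes with the smallest adjusted p, VHL and ARNT, and genes of at least 10 CPM called against the majority. HIF3A, below 10 CPM, was added after its values were seen.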

Additional observations from a re-analysis of the deposited data

How the results depend on the processing

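Across 13 alternatives, 35 of the 45 genes kept their side of the threshold and 31 also kept their direction. The other 4 did not pass in any alternative, and with library size alone their log2 fold changes turned from negative to 0.07 for HK1, 0.03 for PGK1, 0.05 for ENO1 and 0.06 for EPAS1. The 33 genes called lower became 29 with library size alone and 31 without any 1 POGK replicate. With library size alone, 8 of the 45, 5 glycolytic steps and 5 of the other glycolysis genes were called higher, in place of 4, 2 and 3; this scaling moved the median of all genes by 0.19. With libraries left out in turn, the number called higher ran from 2 to 7 of the 45, from 1 to 5 of the glycolytic steps, from 3 to 6 of the gluconeogenesis and glycogen genes and from 1 to 3 of the further hypoxia genes. The largest number of glycolytic steps came without control replicate 1. A further list left out GAPDH, PKM, TPI1, PGK1, ENO1, LDHA, LDHB and PGAM1, which have 2 to 65 pseudogenes by name. ALDOA, with 2, and HK2, with 1, were kept in it. Of the 9 glycolytic steps left, 7 were lower, 1 was higher and 1 did not pass, in place of 9, 2 and 6. Their median log2 fold change was -0.55, against -0.36 for all 17 steps. Among all genes tested, 33.3% were lower and 32.7% higher. The filter of 1 CPM in 3 libraries left 2 gluconeogenesis and glycogen genes lower and 1 further hypoxia gene higher, since fewer genes were tested. The replicate block gave 33 lower and 3 higher of the 45, with GYS1 the 1 call lost. EP300 had a log2 fold change of -0.18 and was called lower, and was at 0.011 with library size alone; its call was lost in 8 of 13 alternatives, at adjusted p-values from 0.0509 to 0.900. PCK2 ran from -0.36 to 0.27, the latter without control replicate 2, whose level was 55.6 CPM against 26.6 and 27.3 CPM in the other control libraries. The cause of these shifts was not tested.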

Other observations

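Exon overlap touched 10 of the 45 genes over at least 10% of their length. Of these, 9 fell and 1 did not pass, and of the 35 others 24 fell, 4 rose and 7 did not pass. ALDOA stood at 12.1 CPM per kb of exon in control cells, below ALDOC at 81.2 CPM per kb, and 54.2% of its exon length is shared with other genes, so the order of the aldolases by level is uncertain in these counts. EGLN3 held 59.4 ± 5.59% of the EGLN pair in control and 46.7 ± 2.43% in POGK cells, and CA9 held 54.4 ± 1.26% of the carbonic anhydrase pair in control and 40.2 ± 1.87% in POGK cells; both families include a gene with large exon overlaps. MIR210HG, the host transcript of the hypoxia-linked miR-210, had 5.72, 3.35 and 8.05 CPM in control and 6.01, 7.91 and 8.40 CPM in POGK libraries and did not pass (edgeR adjusted p = 0.252). It was chosen after its values were seen.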
